A study of Homo sapiens with 8 samples.

Results

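Cullin-RING ubiquitin ligases are modular enzymes, and their core genes were followed here in 22RV1 cells that had received a miR-194 mimic. The 10 genes are the scaffolds CUL1, CUL2, CUL3, CUL4A, CUL4B and CUL5, the RING subunits RBX1 and RNF7, the adaptor DDB1 and the exchange factor CAND1. They were taken by symbol from a table of 23346 symbols, all 10 were found, and all 10 were among the 14977 genes that passed the filter on low counts. CUL4B and RBX1 are reported miR-194 targets, and their paralogs CUL4A and RNF7 served for comparison.

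22RV1 is an established human prostate cancer line. The cells, at passages given as 16-17, were transfected in suspension with 20 nM of the miR-194 mimic or of the negative control and collected after 36 h. There were 4 libraries per group, and no untransfected library was analysed here. The labels name no separate cultures, so the p-values measure the variation among libraries alone, which may be technical.

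In these enzymes a long, curved cullin holds a receptor for the substrate at one end and a RING subunit at the other. The RING subunit, RBX1 on most cullins and RNF7 on CUL5, recruits the enzyme that carries ubiquitin. CUL4A and CUL4B reach their receptors through DDB1. Attachment of the small protein NEDD8 switches a cullin on, the COP9 signalosome removes it, and CAND1 then allows one receptor to be exchanged for another. The cell cycle, the DNA damage response and, in the prostate, turnover of proteins by the CUL3 receptor SPOP all depend on such ligases. A microRNA guides a silencing complex to messages that pair with its seed, usually in the 3′ UTR, and these messages are then degraded or less translated.

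The guide strand of miR-194 is shown with the seed matches of the members, which were found in members that fell and in members that did not pass. The mature human miR-194-5p of RefSeq (GRCh38.p14), encoded on chromosomes 1 and 11, has its seed, bases 2 to 8, in capitals:
hsa-miR-194-5p: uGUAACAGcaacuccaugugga

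Sites were searched in the longest annotated 3′ UTR of each gene (GENCODE 29, GRCh38). An 8mer site is CTGTTACA, a 7mer-m8 site is CTGTTAC without the final A, and a 7mer-A1 site is TGTTACA without the first C. Capitals mark the match, and the lines run 5′ to 3′ along the message. Those of the genes that were lower with the mimic are as follows.
CUL4B 8mer: attttactaggtgatgttCTGTTACActg
CUL4B 7mer-A1, first: atgaacgtgttttgtaaatTGTTACAgga
CUL4B 7mer-A1, second: acttggaccaattgtagatTGTTACAggc
CUL4A 7mer-m8: ttaggcatttaaattgtttCTGTTACtct
RBX1 7mer-m8: catttaatgactttccctgCTGTTACcta
RNF7 7mer-A1: ttgatcagttaaaaaagaaTGTTACAgta

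A further 3 scaffolds held a site and did not pass the test, so their sequences are set beside the others.
CUL2 7mer-m8: ttctatatgcctcccctacCTGTTACcct
CUL3 7mer-A1: taatcctatccatattccaTGTTACAaat
CUL5 7mer-A1: agaaaggcatacagtattaTGTTACAgtg

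The CUL4B matches lie at chrX:120526211-120526218, chrX:120525894-120525900 and chrX:120525796-120525802 on the minus strand (GRCh38), at bases 543, 861 and 959 of a 3′ UTR of 2152 bases. All 3 are absent from the other 2 annotated CUL4B 3′ UTRs, of 365 and 120 bases, and which form the cells used was not measured. The CUL4A match lies at chr13:113263811-113263817 on the plus strand, starts at base 229 of the 3′ UTR and is in 4 of 5 annotated CUL4A 3′ UTRs. The RBX1 match, at chr22:40972547-40972553 on the plus strand, starts at base 59 of an 821-base 3′ UTR. The RNF7 match lies at chr3:141745666-141745672 on the plus strand and starts at base 389. In the scaffolds that did not pass, the match starts at base 930 in CUL2 (chr10:35009375-35009381, minus strand), at 3352 in CUL3 (chr2:224470887-224470893, minus strand) and at 1482 in CUL5 (chr11:108105866-108105872, plus strand). The CUL3 match is in 2 of 6 annotated CUL3 3′ UTRs, and the other forms, of 212 to 323 bases, hold none. CUL1, DDB1 and CAND1 held no 8mer, 7mer or 6mer match in the 3′ UTR. CUL5 was the one member with an 8mer or 7mer match in the coding sequence, an 8mer.

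**Figure D1:**
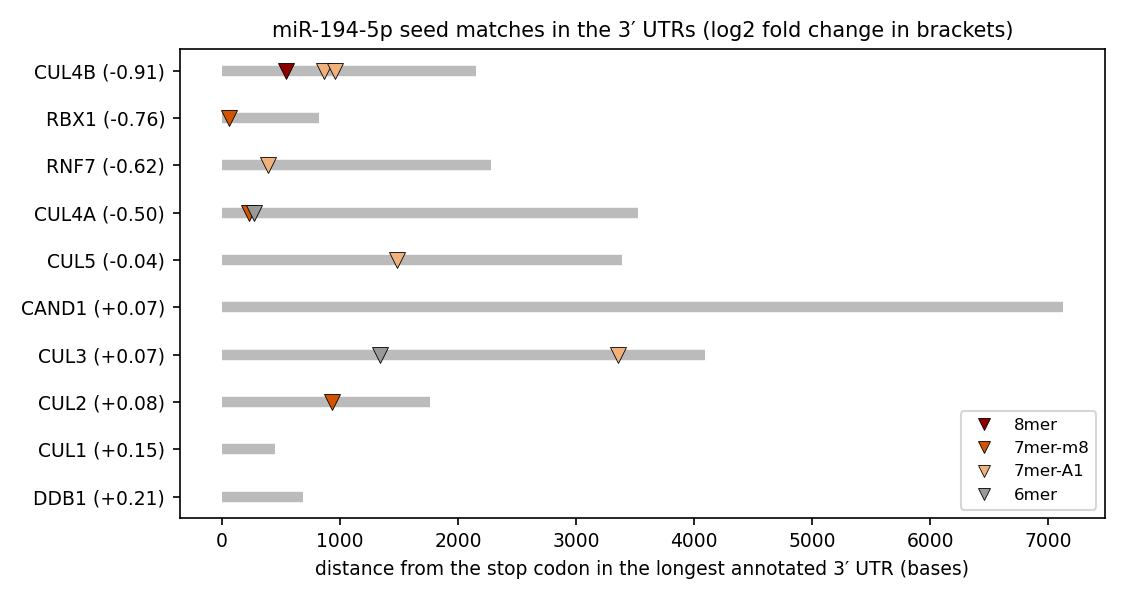
The longest annotated 3′ UTR of each member (grey bar, x axis in bases from the stop codon) with its miR-194-5p seed matches (triangles, coloured by class) and, in brackets, its log2 fold change. CUL4B holds 3 matches of 7 or 8 bases, and CUL1, DDB1 and CAND1 hold none.

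Total counts per library ran from 32485036 to 47248241, and the 10 genes together took from 0.170% to 0.184% of them. The 7 luminal epithelial markers of the prostate examined were all present, from KLK3 at 4.58 CPM or more (normalised counts, here scaled to library totals) to KRT8 at up to 1438 CPM. Of these 7, KRT8, KRT18, EPCAM, KLK2 and KLK3 rose with the mimic, by 0.16 to 1.11 on the log2 scale, FOXA1 fell by 0.22, and HOXB13 did not pass by the test used for the members. All 4 immune markers stayed at or below 1 CPM and both endothelial markers were at 0, while the fibroblast set summed to 44.2 to 52.6 CPM with the mimic and 41.3 to 48.6 CPM in the controls, from LUM and COL1A1, of which COL1A1 rose by 0.26. The part of these marker levels in the results was not tested.

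Of the 10 members, 4 fell with the mimic, 2 rose and 4 did not pass. CUL4B fell by 46.9%, RBX1 by 40.8%, RNF7 by 35.0% and CUL4A by 29.3%, while DDB1 rose by 15.5% and CUL1 by 11.3%. Calls are from the quasi-likelihood test of edgeR, with p-values adjusted (Benjamini-Hochberg) over all tested genes and a threshold of 0.05. By the same test 38.1% of all tested genes changed, 19.9% lower and 18.3% higher, so calls were common in these libraries. With the replicate number as a block 4 members fell and 4 rose, CUL2 and CUL3 now among them, against 25.2% of all tested genes that rose and 25.6% that fell in that fit. For 8 of the 10 members the 4 mimic and the 4 control values did not overlap, 4 of them lower and 4 higher with the mimic, against 36.9% of all tested genes, 19.5% lower and 17.4% higher. The members' median log2 fold change was 0.014, against 0.0017 for all tested genes. In bulk RNA, fewer cells expressing a gene and less RNA per cell cannot be told apart.

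**Figure D2:**
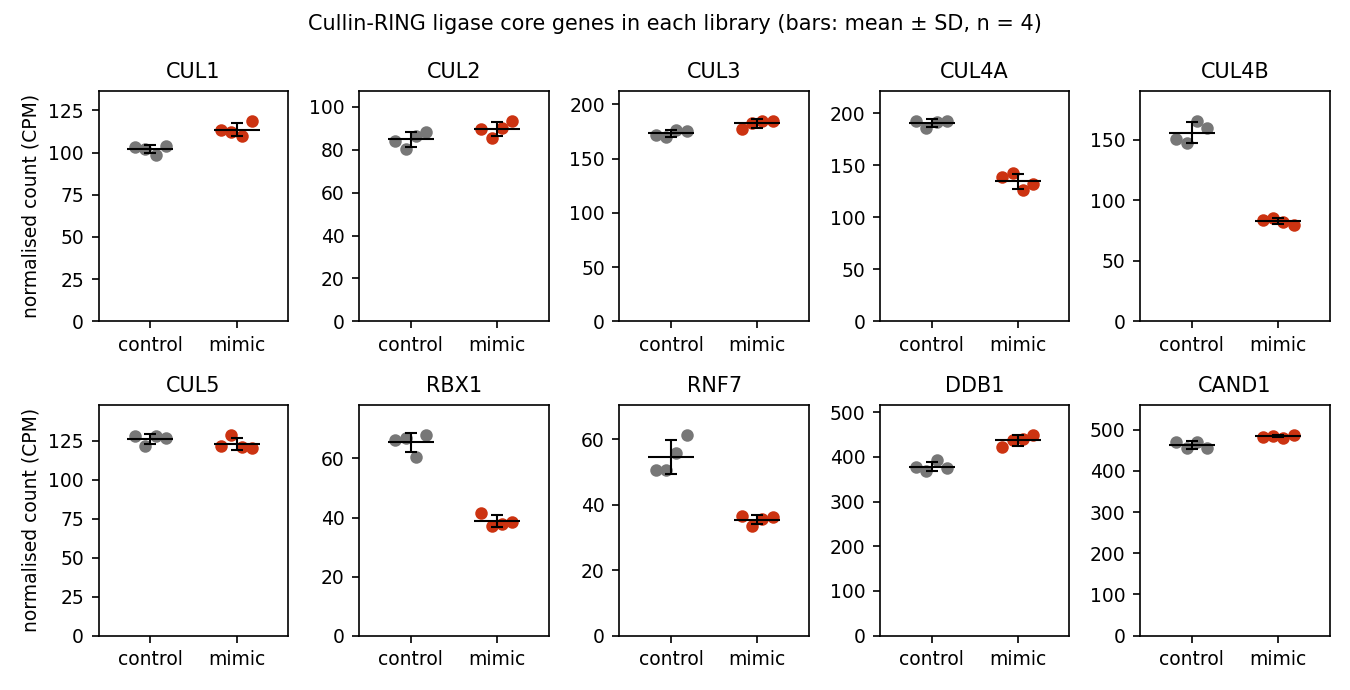
Normalised counts (CPM, y axes from 0) of the 10 members in each library, with the 4 negative control libraries in grey, the 4 mimic libraries in red and bars for mean ± SD. CUL4A, CUL4B, RBX1 and RNF7 are lower in each mimic library than in any control library.

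CUL4B, the nuclear-targeted member of the CUL4 pair, had 84.1, 85.5, 81.7 and 79.6 CPM in mimic libraries 1 to 4 (CPM from here on use TMM library sizes). In control libraries 1 to 4 it had 151, 147, 166 and 159 CPM. The lowest control library thus lay far above the highest mimic library. The means were 82.7 ± 2.59 and 156 ± 8.43 CPM (SD, n = 4 each). This is a log2 fold change of -0.91 ± 0.04 (SE), with adjusted p = 4.09e-08 by edgeR. Only 1.14% of tested genes had a lower fold change. Among the 573 tested genes whose best site was an 8mer, with a median log2 fold change of -0.19, 50 were lower than CUL4B.

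CUL4A, which shares DDB1 and many receptors with CUL4B, had 138, 142, 126 and 132 CPM in the mimic libraries and 192, 185, 192 and 193 CPM in the controls. The groups did not overlap. Its log2 fold change was -0.50 ± 0.04 (SE), from 191 ± 3.47 to 135 ± 7.07 CPM (SD, n = 4 each), with adjusted p = 2.34e-06 by edgeR. Of 1022 tested genes whose best site was a 7mer-m8, 159 were lower. The comparison paralog therefore also carries a site and also fell. CUL4A shares 437 exon bases with PCID2 on the opposite strand, 5.55% of its annotated exons, and whether the counting used strand is not stated in these sources. PCID2 had a log2 fold change of 0.10 ± 0.05 (SE) with adjusted p = 0.186 by edgeR.

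RBX1, the RING subunit of most cullins, had 41.6, 37.1, 37.7 and 38.5 CPM in the mimic libraries. The control libraries had 66.3, 66.8, 60.6 and 68.0 CPM, again with no overlap. From 65.4 ± 3.28 to 38.7 ± 2.02 CPM (SD, n = 4 each), its log2 fold change was -0.76 ± 0.05 (SE) with adjusted p = 5.38e-07 by edgeR. Of the 1022 genes with a 7mer-m8 as best site, 67 were lower than RBX1, with a class median of -0.10.

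RNF7, the RING partner of CUL5, had 36.5, 33.6, 35.6 and 36.1 CPM in the mimic libraries and 50.7, 50.5, 55.8 and 61.3 CPM in the controls. No mimic library reached the lowest control, and control libraries 3 and 4 were above 1 and 2. The log2 fold change was -0.62 ± 0.06 (SE), from 54.6 ± 5.11 to 35.4 ± 1.28 CPM (SD, n = 4 each), with adjusted p = 1.55e-05 by edgeR. Of 1173 genes with a 7mer-A1 as best site, 81 were lower, against a class median of -0.11.

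**Figure D3:**
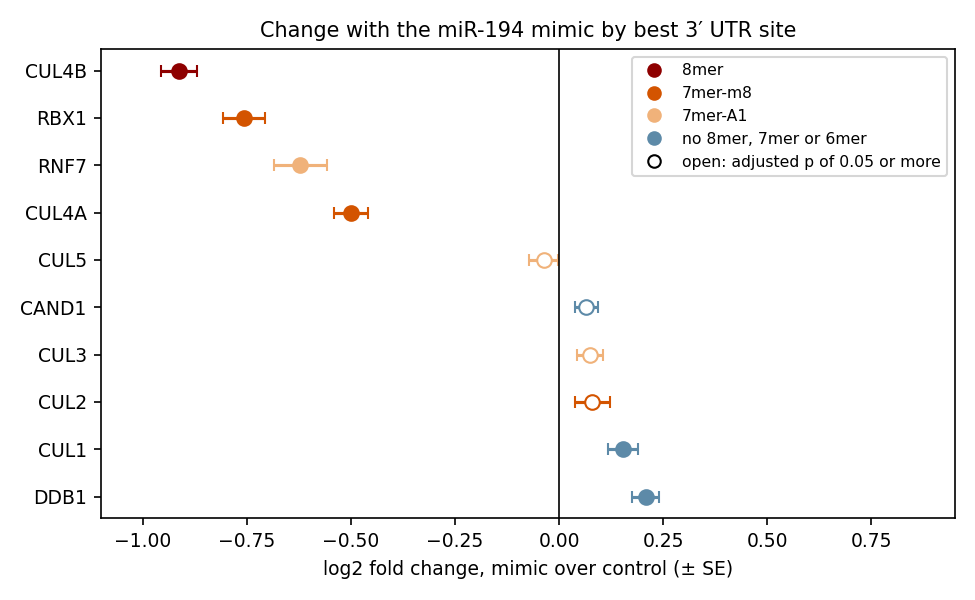
Log2 fold change of each member, mimic over control (x axis, points with SE), coloured by its best 3′ UTR site, with open points where the adjusted p was 0.05 or more. The 4 lowest, from CUL4B at -0.91 to CUL4A at -0.50, each carry an 8mer or 7mer site, and CUL2, CUL3 and CUL5 carry one and lie near 0.

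The fall of a member within its pair was compared in each library as a difference of log2 CPM. CUL4B minus CUL4A was -0.72, -0.74, -0.63 and -0.73 in mimic libraries 1 to 4 and -0.35, -0.33, -0.21 and -0.28 in control libraries 1 to 4. The groups did not overlap, and CUL4B lost more than CUL4A by 0.41 on the log2 scale. The two-sided exact permutation p was 0.0286, the smallest that 4 against 4 libraries allow, and 0.0571 after adjustment over the 2 pairs. With the other pair at an exact permutation p of 0.200, no smaller adjusted value was possible. The adjusted test could therefore not pass, however far apart the groups lay. With the replicate number as a block, the exact sign-flip p was 0.125, the smallest that 4 pairs allow. CUL4B minus CUL4A changed by -0.38 within replicates 1 and 2 and by -0.44 within replicates 3 and 4.

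RBX1 minus RNF7 was 0.19, 0.14, 0.08 and 0.09 in the mimic libraries and 0.39, 0.40, 0.12 and 0.15 in the controls. The groups overlapped, and control libraries 1 and 2 stood above 3 and 4. Mimic minus control within same-numbered libraries was -0.20, -0.26, -0.04 and -0.06, below 0 in 4 of 4, and the exact sign-flip p was again 0.125, the smallest possible. The unpaired difference of -0.14 had a two-sided exact permutation p of 0.200, also 0.200 after adjustment. Replicates 1 and 2 alone gave -0.23, and replicates 3 and 4 alone gave -0.05. Neither test passed for this pair, and the paired one could not.

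**Figure D4:**
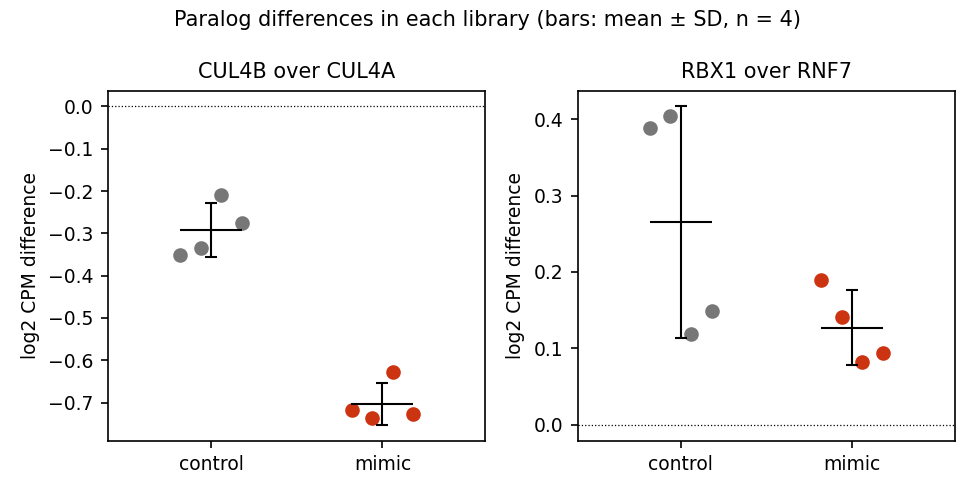
Difference of log2 CPM between paralogs in each library (points, y axis in log2 units) for the negative control (grey) and mimic (red) libraries, with mean ± SD. CUL4B over CUL4A separates the groups, at -0.29 ± 0.06 against -0.70 ± 0.05, while RBX1 over RNF7 overlaps.

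DDB1, the adaptor of both CUL4 proteins, moved the other way. It had 421, 438, 441 and 449 CPM in the mimic libraries and 377, 369, 392 and 375 CPM in the controls, without overlap. The log2 fold change was 0.21 ± 0.03 (SE) with adjusted p = 0.000397 by edgeR. DDB1 shares 521 exon bases with TKFC on the opposite strand, 3.73% of its annotated exons. TKFC, counted under its older symbol DAK, fell by 0.36 ± 0.05 (SE) on the log2 scale, and its part in the DDB1 value was not tested.

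CUL1, the scaffold of the ligases that use F-box receptors, had 113, 112, 110 and 119 CPM in the mimic libraries and 103, 102, 98.8 and 104 CPM in the controls. The groups did not overlap, and the log2 fold change was 0.15 ± 0.04 (SE) with adjusted p = 0.00546 by edgeR. The antisense gene AC005229.4 shares 385 exon bases with CUL1 on the opposite strand, 10.9% of the annotated exons of CUL1. It was not among the tested symbols, so its part in the CUL1 value was not tested. CAND1, which binds cullins free of NEDD8, had 482, 486, 481 and 487 CPM with the mimic and 470, 455, 470 and 455 CPM without. These groups were apart, but the log2 fold change of 0.065 ± 0.028 (SE) had adjusted p = 0.0869 by edgeR and did not pass. DESeq2 gave adjusted p = 0.0419 for CAND1.

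CUL3, the scaffold for BTB receptors such as SPOP and KEAP1, had 177, 183, 185 and 185 CPM with the mimic and 172, 170, 176 and 176 CPM without. The antisense gene AC073052.2 overlaps 5.20% of its annotated exons. Its groups were narrowly apart, at a log2 fold change of 0.074 ± 0.031 (SE) and adjusted p = 0.0782 by edgeR. CUL2, the scaffold that carries the von Hippel-Lindau receptor, ranged from 85.5 to 93.6 CPM with the mimic and from 80.4 to 88.4 CPM without, and the ranges overlapped. Its log2 fold change was 0.079 ± 0.042 (SE), with adjusted p = 0.157 by edgeR. With the replicate block, adjusted p was 0.0433 for CUL2 and 0.0423 for CUL3 by edgeR, so both then passed as higher. Without mimic library 1, CUL3 had a log2 fold change of 0.092 and adjusted p = 0.0497 by edgeR.

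CUL5, the scaffold of ligases with SOCS-box receptors, had 121, 129, 121 and 120 CPM in the mimic libraries and 128, 121, 128 and 127 CPM in the controls. The groups overlapped, with mimic library 2 above every control and the other 3 near control library 2. The log2 fold change of -0.038 ± 0.035 (SE) had adjusted p = 0.437 by edgeR. The antisense gene AP002433.1 overlaps 6.69% of the annotated exons of CUL5, and neither it nor AC073052.2 was among the tested symbols. Of the 1173 genes with a 7mer-A1 as best site, 705 were lower than CUL5 and 914 were lower than CUL3. For CUL2, 810 of the 1022 genes with a 7mer-m8 were lower.

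Of the 7 members with an 8mer or 7mer site, 4 fell, none rose and 3 did not pass. With the replicate block 4 of the 7 fell, CUL2 and CUL3 rose and CUL5 did not pass. Of the 3 members without one, none fell, 2 rose and 1 did not pass, with the block as without it. At an unadjusted p below 0.05 by edgeR, CUL3 was higher among the members with a site, and none of those without one was lower. Among all 2768 tested genes with such a site, 40.8% fell and 314 genes rose. Among the 9007 genes with no match 13.3% fell and 2007 genes rose. These values are from the fit without the block, and values by site were not computed with it. The share of members with a site that fell is a small count beside this background and is given as a description. CUL4B and RBX1, which fell, are reported miR-194 targets, so the members are not a neutral set for this count. In all, 9 matches of 7 or 8 bases were found in these members, 3 of them in CUL4B.

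Levels between genes were compared as CPM per kilobase of annotated exons. In the control libraries CAND1 was the highest at 33.9 ± 0.637, followed by CUL1 at 28.8 ± 0.648, DDB1 at 27.1 ± 0.692, CUL4A at 24.2 ± 0.441, CUL4B at 22.2 ± 1.20 and RBX1 at 21.2 ± 1.06 CPM per kilobase (SD, n = 4). CUL5 at 18.7 ± 0.486, RNF7 at 17.3 ± 1.63, CUL2 at 16.5 ± 0.674 and CUL3 at 15.1 ± 0.254 CPM per kilobase came after them. The neighbours CUL1 and DDB1, CUL4A and CUL4B, CUL4B and RBX1, CUL5 and RNF7, and RNF7 and CUL2 overlapped. In the mimic libraries CUL4B had 11.8 ± 0.369 CPM per kilobase and moved from the fifth to the ninth place. CUL4A, at 17.1 ± 0.899, moved from the fourth to the sixth, and RNF7, at 11.3 ± 0.407, was the lowest. The order rests on the length used. Per kilobase of the longest transcript DDB1 was the highest in the controls, at 84.0 ± 2.14 CPM per kilobase, and RBX1 the next at 55.1 ± 2.76.

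By this measure CUL4B made up 47.8% ± 1.11 of the summed CUL4A and CUL4B level in the control libraries, between 46.7% and 49.2%. In the mimic libraries it made up 40.7% ± 0.836, between 40.2% and 42.0% (SD, n = 4 each). With the longest transcripts the shares were 48.6% and 41.5%.

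The wider ligase system was described by 10 gene lists of 231 genes found in the table, of which 207 were tested. Of these, 45 rose (21.7%), 46 fell (22.2%) and 116 did not pass, with a median log2 fold change of 0.01. Both shares were close to those of all tested genes. Of the 52 with an 8mer or 7mer site, 16 fell and 7 rose, with a median of -0.07. Among all 2768 tested genes with such a site, 1129 fell (40.8%) and 314 rose, with a median of -0.12. Of the other 155 list genes, 30 fell and 38 rose, with a median of 0.02. Among all 1674 tested genes with a 6mer as best match, 421 fell (25.1%) and 319 rose. Among the 9007 with no match, 1201 fell (13.3%) and 2007 rose. The split of the lists by site is given as a description.

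The genes that attach NEDD8 to cullins included 5 of 10 that fell (50%) and none that rose, with a median log2 fold change of -0.16, beside 19.9% of all tested genes that fell and 18.3% that rose. None rose at an unadjusted p below 0.05 by edgeR, and none by DESeq2 or limma-voom. DCUN1D4, one of the proteins that help transfer NEDD8 onto cullins, had 88.8 ± 2.22 CPM in the controls and 45.7 ± 0.629 CPM with the mimic (SD, n = 4 each). Its log2 fold change was -0.96 ± 0.04 (SE), with adjusted p = 5.79e-09 by edgeR. Its 3′ UTR held 5 sites of 7 bases. DCUN1D5, of the same family, fell by 0.66 and held 1 site. UBE2M, the NEDD8-conjugating enzyme that works with RBX1, fell by 0.37, and UBE2F, which works with RNF7, fell by 0.20. The count of 5 became 3 without mimic library 4 or without control library 1, 2 or 3. With the replicate block it became 7 of 10 (70%), beside 25.6% of all tested genes that fell in that fit. With 1 library left out, 16.9% to 18.6% of all tested genes fell. The call for UBE2F was lost without mimic library 2 or 4 or control library 1, 2 or 3, with adjusted p from 0.0588 to 0.0852 by edgeR.

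The COP9 signalosome, which removes NEDD8, had 5 of 9 subunits that rose (55.6%) and 2 that fell (22.2%), with a median of 0.13, beside the same 18.3% and 19.9% of all tested genes. COPS5, the subunit that cuts NEDD8 off, rose by 0.25 ± 0.03 (SE) and COPS2 by 0.26. COPS7B fell by 0.71, from 43.6 ± 0.316 to 26.7 ± 1.12 CPM (SD, n = 4 each), and COPS3 by 0.44. COPS7B held a 7mer-m8 site and COPS3 a 6mer. COPS2 held a 7mer-A1 site and rose. Of the brakes and exchange factors, GLMN, which covers the RING of RBX1, fell by 0.21 and CAND2, the paralog of CAND1, by 0.27. Neither held a site. SENP8, which matures NEDD8, held a 7mer-A1 site and did not pass at -0.06 ± 0.07 (SE).

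Among the partners that transfer ubiquitin, 5 of 8 rose (62.5%) and none fell, with a median of 0.16, where 18.3% of all tested genes rose and 19.9% fell. Again 0 fell at an unadjusted p below 0.05 by edgeR, or by DESeq2 or limma-voom. UBE2R2 and CDC34, the elongating enzymes of CUL1 ligases, rose by 0.33 and 0.26, UBE2G1, which works with CUL4 ligases, by 0.35 and UBE2D1 by 0.21. UBE2G1 rose although its 3′ UTR held 2 7mer-A1 sites. The count became 3 without mimic library 1 or 3 or control library 3 or 4, and with 1 library left out 15.3% to 18.1% of all tested genes rose. CDC34 lost its call without mimic library 1, 2 or 3 or control library 3 or 4, with adjusted p from 0.0515 to 0.0602 by edgeR. Of the other cullins, CUL7 rose by 0.34 ± 0.04 (SE), while CUL9 at -0.01 and ANAPC2, the cullin-like subunit of the anaphase-promoting complex, at 0.10 did not pass. Of the adaptors DDA1, which binds DDB1, rose by 0.18, and within replicates 1 and 2 alone its adjusted p was 0.0683 by edgeR. SKP1 at -0.02, TCEB1 (elongin C) at 0.02 and TCEB2 (elongin B) at -0.00141 did not pass.

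The shares of substrate receptors that rose or fell lay around the 18.3% and 19.9% of all tested genes, so the genes named are given for their own values. Of 61 tested F-box receptors of CUL1, 12 rose (19.7%) and 14 fell (23.0%), with a median of 0.02. FBXW2, with an 8mer among 3 sites, fell by 0.50 and FBXL20 by 0.46, while FBXO31 rose by 0.35 and FBXL12 by 0.35. With the replicate block 20 of these receptors rose (32.8%), where 25.2% of all tested genes did. Within replicates 3 and 4 alone 7 rose (11.5%), where 15.9% of all tested genes did. Of 44 BTB receptors of CUL3, 7 rose (15.9%) and 11 fell (25%), with a median of -0.05. SPOPL, the paralog of SPOP, fell by 0.43 with a 7mer-A1 site and KBTBD2 by 0.25, while KLHL9 rose by 0.40 and KBTBD8 by 0.75. With the replicate block 11 of them rose (25%), beside 25.2% of all tested genes.

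Of 39 receptors of CUL2 and CUL5, 8 rose (20.5%) and 5 fell (12.8%), with a median of 0.04. With the replicate block 9 fell (23.1%), beside 25.6% of all tested genes. WSB1, a SOCS-box protein, rose by 0.66, from 67.0 ± 1.35 to 106 ± 3.91 CPM (SD, n = 4 each), and TCEB3 (elongin A) rose by 0.48. ASB8 fell by 0.29 and ZYG11B, a receptor for proteins that start with glycine, fell by 0.42. Of 26 receptors of CUL4, 6 rose (23.1%) and 7 fell (26.9%), with a median of 0.03. DDB2, which recognises ultraviolet damage in DNA, fell by 0.46, DTL, which acts at PCNA on chromatin, by 0.35 and PHIP by 0.33. GRWD1 rose by 0.91, from 48.4 ± 4.03 to 91.3 ± 4.81 CPM (SD, n = 4 each). PHIP held 2 sites of 7 bases, and DDB2, DTL and GRWD1 held none.

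**Figure D5:**
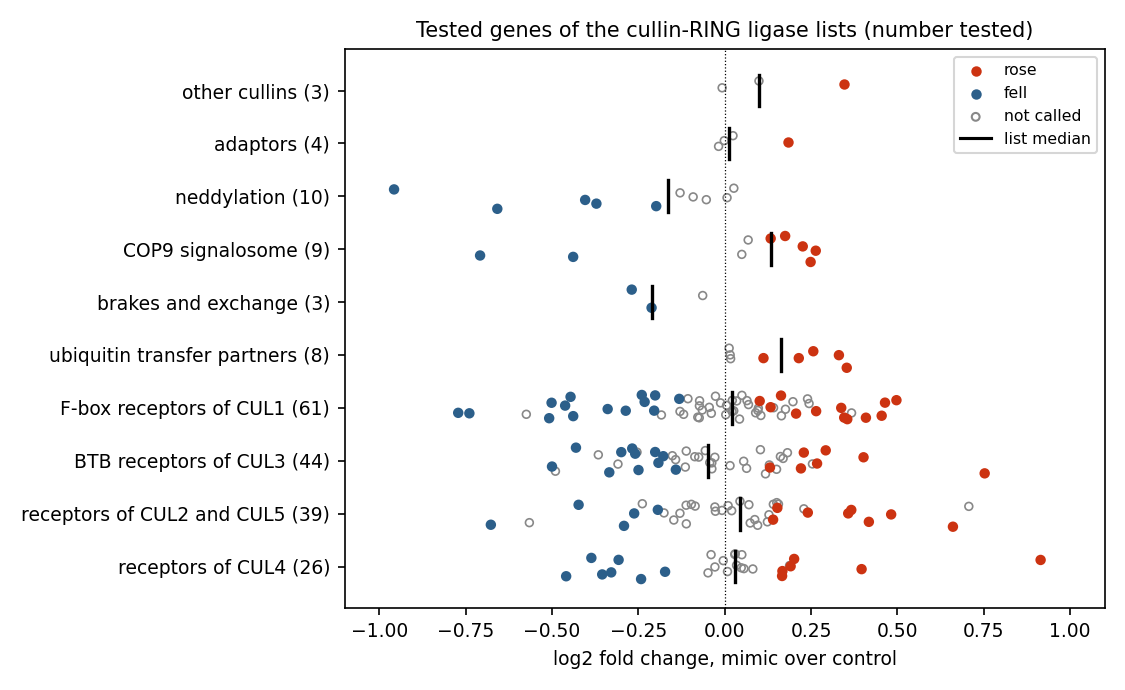
Log2 fold change (x axis) of each tested gene of the 10 cullin-RING ligase lists, with genes that rose in red, that fell in blue and that did not pass as open circles, and the list median as a black line. The neddylation genes have a median of -0.16 and the ubiquitin transfer partners one of 0.16, while the 4 receptor lists have medians from -0.05 to 0.04.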

How the data were processed

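Libraries were made with an mRNA kit, per the labels. The authors deposited raw counts of reads per gene symbol. The tools STAR, cutadapt 1.8.1, FastQC, edgeR 3.3 and R 3.2.3 and the build hg19 are listed, without roles, per the submitters' processing notes. Which program and annotation gave the counts, whether strand was used and how reads shared by similar genes were treated is not stated in these sources. Groups and replicate numbers came from the titles.

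Differences were tested with edgeR 4.0.16 (R 4.3.3; filterByExpr, TMM, robust quasi-likelihood fit, group as the only term, Benjamini-Hochberg). The standard error of a log2 fold change was obtained by dividing it by the root of its F value. CPM on the log2 scale has a prior count of 2. DESeq2 1.42.0 and limma 3.58.1 (voom) were alternatives, beside other scalings, filters, the replicate block and the removal of libraries. The fit was tested on simulated independent libraries with few planted changes, balanced in direction. The data hold many more calls and differences between replicates, so the error rate in that setting was not checked. Sites were searched with Python 3.11.15 and pandas 2.3.3 in protein-coding transcripts of GENCODE 29 (GRCh38, not the build of the counts), in 3′ UTRs of at least 50 bases, joined by symbol or RefSeq synonym for 89.8% of tested genes.

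Pairing by replicate number was checked on deviations from the group means. Same-numbered libraries correlated at 0.27, 0.34, 0.18 and 0.43, which meets the rule set for pairing (above 0.1). Mimic replicates 1 and 2 also correlated with each other's control, as did 3 and 4, at up to 0.32. Mimic replicate 3 correlated more with control 4 (0.20) than with control 3 (0.18). Between replicates 1 or 2 and replicates 3 or 4 all correlations were negative, from -0.48 to -0.09. The values thus set replicates 1 and 2 apart from 3 and 4, and do not resolve the pairs within each set. No 2 replicates agreed within sampling noise (chi-square over degrees of freedom of at least 3.64). The members and lists were chosen with earlier results of these data known. Named genes were all members, up to 4 with the smallest p in each list, and the 3 genes nearest in pattern to CUL4B and to RBX1. Of the luminal markers first listed, 2 are not reported here.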

Additional observations from a re-analysis of the deposited data

Results flagged for a closer look

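CUL5 stood out in mimic library 2, where it had 129 CPM against 120 to 121 CPM in the other 3 mimic libraries. The gap to the nearest library was 0.876 of the range of that group on the log2 scale. Of 24 groups of 4 examined in this way (the 10 members and the 2 paralog differences, in each group), this was the 1 that stood out, and chance alone is expected to mark about 1 in 20.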

How the results depend on the processing

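CUL4A, CUL4B, RBX1, RNF7, CUL1 and DDB1 kept their direction and their side of the threshold under each of the 18 alternatives, and CUL5 did not pass in any. With 1 library left out, the log2 fold change ran from -0.94 to -0.88 for CUL4B, from -0.79 to -0.73 for RBX1, from -0.66 to -0.56 for RNF7 and from -0.52 to -0.47 for CUL4A. CAND1 passed with DESeq2 (0.066). With the replicate block CUL2 (0.079) and CUL3 (0.074) passed, and with 1 library left out CUL3 ran from 0.065 to 0.092 and passed once. The paralog difference CUL4B over CUL4A, -0.41 under the replicate block, ran from -0.44 to -0.38 with 1 library left out (exact p = 0.0571, the smallest possible). Replicates 1 and 2 alone gave -0.38, and replicates 3 and 4 alone -0.44 (exact p = 0.333, the smallest possible). These designs cannot pass, so their p-values say nothing on stability. The cause of the other changes was not tested. The block changed no other call among the members. The library totals and the number of libraries limit the precision, and all intervals rest on 4 libraries per group.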

Other observations

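The tested genes whose pattern over the 8 libraries was nearest to that of CUL4B were SCPEP1, OSTM1 and CMTM6, among 10302 candidates (mean log2 CPM at or above 3). Their root mean square differences from CUL4B in centred log2 CPM were 0.0344, 0.0403 and 0.0469. SCPEP1, OSTM1 and CMTM6 had log2 fold changes of -0.89, -0.89 and -0.88. Nearest to RBX1 were HIGD2A, a factor of respiratory chain assembly, SUMO2, a ubiquitin-like modifier, and WEE1, a kinase that holds back mitosis, at 0.0299, 0.0308 and 0.0409. HIGD2A, SUMO2 and WEE1 had log2 fold changes of -0.79, -0.76 and -0.73. Likeness over 8 libraries in 2 groups is mainly likeness of the fold change.

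In each of the 4 members that fell, the first match of 7 or 8 bases started within 600 bases of the stop codon, and in CUL2, CUL3 and CUL5 it started beyond. This was noticed after the values were seen, and the cut of 600 bases was drawn with them known. The members with a single 7mer site are among the genes counted below. CUL4B, with 3 matches, is not. Of 524 tested genes with a single 7mer site that started within 600 bases of the stop codon, 43.1% fell, with a median log2 fold change of -0.15. Of 1195 with such a site further on, 33.2% fell, with a median of -0.06. Among genes with a 3′ UTR of 2000 bases or more the shares were 39.3% of 173 and 30.9% of 913. Genes are not independent replicates, and these shares are given without a test.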
